A study of Mus musculus with 6 samples.

Results

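The genes described here encode enzymes that attach ubiquitin to proteins or take it off again: ubiquitin-activating enzymes (E1), ubiquitin-conjugating enzymes (E2), ligase parts (E3) and deubiquitinases. Their transcripts were measured in mouse fetal liver, dissected whole on embryonic day 12.5 and disaggregated, with 1 array for each embryo. The members were chosen by name: every probe set that the array annotation gives to 1 gene symbol starting with Ube2, Ube3, Uba plus a digit, Usp plus a digit, Cul plus a digit, Fbxo, Fbxw, Fbxl or Skp, without X- or Y-linked Usp copies (Usp9x). This gave 101 probe sets of 73 genes, out of 8251 genes on the array. Both groups came from matings of 129sv mice heterozygous for Rb, and the embryos were untreated. They were 3 embryos labelled Rb null, without a working copy of the retinoblastoma gene by that label, and 3 labelled wild type, so n = 3 embryos per genotype throughout. The nature of the mutated Rb allele was not given in the sources used here.

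Ubiquitin is a small protein that is activated by an E1, passed to an E2 and joined to a target with the help of an E3, and chains of it mark proteins for the proteasome. In the SCF ligases a cullin scaffold holds the adaptor Skp1, which in turn holds an F-box protein that picks the target, and deubiquitinases of the USP family remove the mark. The system times the cell cycle by destroying cyclins and their inhibitors, and in maturing red cells it clears ribosomes and unpaired globin chains. Ube2o, an enzyme that works as both E2 and E3 and is known for this clearing in reticulocytes, served as the reference member.

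Levels are MAS5 signals, a brightness per probe set on a linear scale. Changes are differences in log2, Rb null minus wild type, of signal plus an offset of 50.02, given ± SE. A gene was read from its brightest probe set and tested only if its mean signal over all 6 arrays exceeded 150.1. It is said to have risen or fallen only at a limma adjusted p below 0.05. Signals of different probe sets cannot be ranked against each other, because probes differ in how well they bind. The 2% trimmed means of the 6 arrays lay between 500.22 and 500.25, while the median signal was 197 to 203 in Rb null and 176 to 186 in wild type arrays. Rb1 read 139, 142 and 127 in Rb null and 791, 754 and 706 in wild type livers, but the position of its probes relative to the mutation was not given in the sources used here.

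Of the 73 genes, 57 passed the signal filter. Among these 5 rose and 5 fell in Rb null livers, and 47 did not pass the test. The 10 called members were 17.5% of those tested, against 22.6% of all 5273 tested genes. By direction, 8.77% of the members rose, against 13.1% of all tested genes, and 8.77% fell, against 9.50%. As a group the ubiquitin enzymes were thus not called more often than other genes. Counted by probe set, 8 rose and 6 fell of 71 tested (19.7%), against 21.8% of all tested probe sets, 12.8% rising and 9.08% falling. The count of genes that rose was less stable than the count that fell: it was 2 without Rb null embryo 1 or wild type embryo 2 and 3 without Rb null embryo 2 or wild type embryo 3, while 4 to 6 genes fell. The probe sets that rose numbered 4 without Rb null embryo 1 and 5 without Rb null embryo 2 or wild type embryo 2. Over all tested probe sets 517 to 706 rose and 319 to 528 fell with 1 embryo left out, against 867 and 617 with all embryos. When the arrays were scaled to equal medians, the split became 2 genes higher and 15 lower, and over all tested probe sets the share of calls that were upward went from 58.4% to 26.0%, as the median change of all probe sets went from 0.02 to -0.10.

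The members that fell were the conjugating enzymes Ube2o, Ube2l6 and Ube2v1, the F-box gene Fbxw5 and the deubiquitinase gene Usp7. Those that rose were the deubiquitinase genes Usp22, Usp33 and Usp48 and the F-box genes Fbxo21 and Fbxw11. None of the tested E1, cullin or Skp genes passed the test, and no conjugating enzyme rose by limma. At an unadjusted p under 0.05 there were 0 among those 7 genes and 1 conjugating enzyme higher, Ube2g1. The 2 tested E1 genes, Uba3 and Uba7, activate ubiquitin-like modifiers. No activating enzyme for ubiquitin itself was tested. The median log2 fold change of the 57 members was -0.04, beside 0.02 over all tested genes, and the median absolute change was 0.12 beside 0.16. A change of at least 1.5-fold, on the same scale, was found in 3 members (5.26%) and in 4.12% of all tested genes. Usp22, among those 3, was tested only because it was brighter in Rb null livers. The 3 Rb null and the 3 wild type values did not overlap for 21 of the 57 members (36.8%), against 41.2% of all tested genes; Rb null embryos were above in 10 (all genes 23.5%) and below in 11 (all genes 17.6%). Over the 71 probe sets the groups were apart for 29 (all probe sets 40.0%), with Rb null above in 16 (22.9%) and below in 13 (17.2%).

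**Figure D1:**
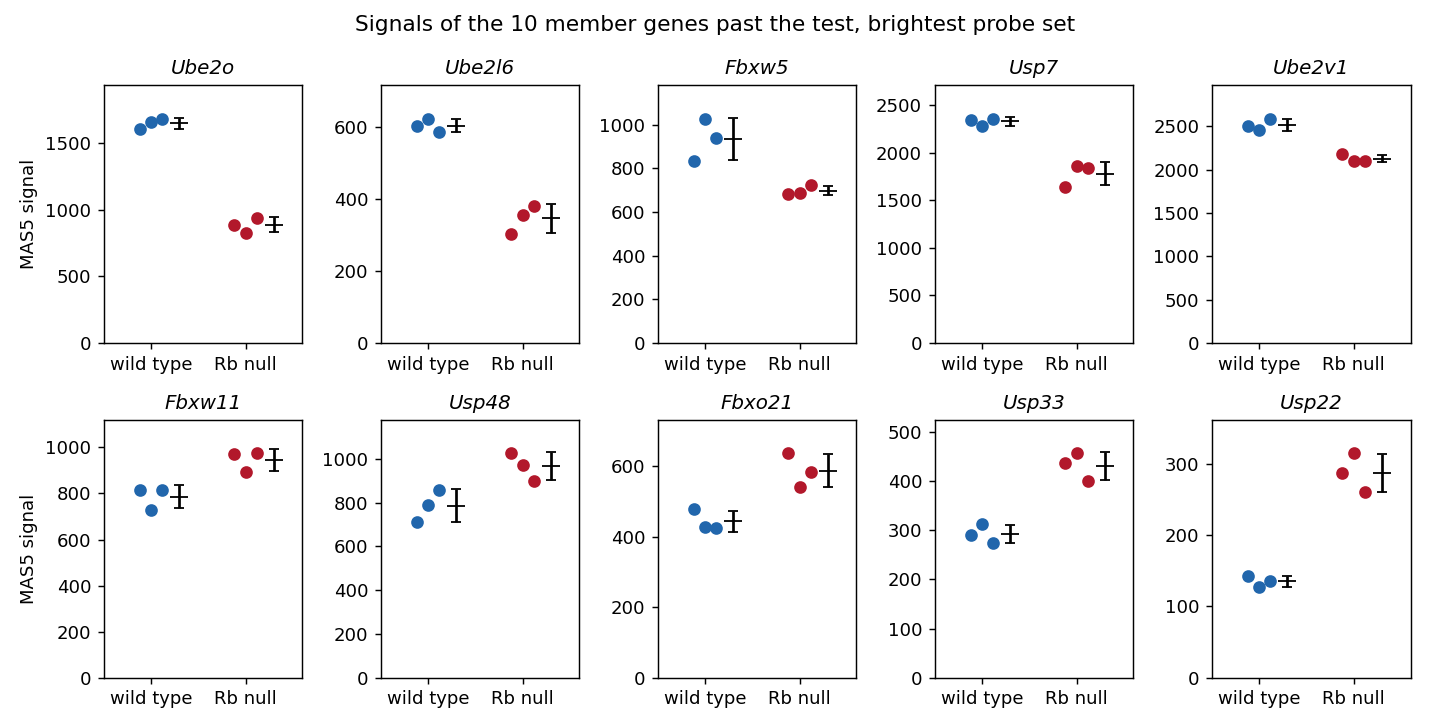
MAS5 signal (linear axis from 0) of the 10 member genes past the test, 1 panel per gene, with a point for each embryo and the mean ± SD of the 3 embryos of a genotype in black. In every panel the 3 Rb null embryos lie on one side of the 3 wild type embryos, and the gap is widest relative to the spread for Ube2o.

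**Figure D2:**
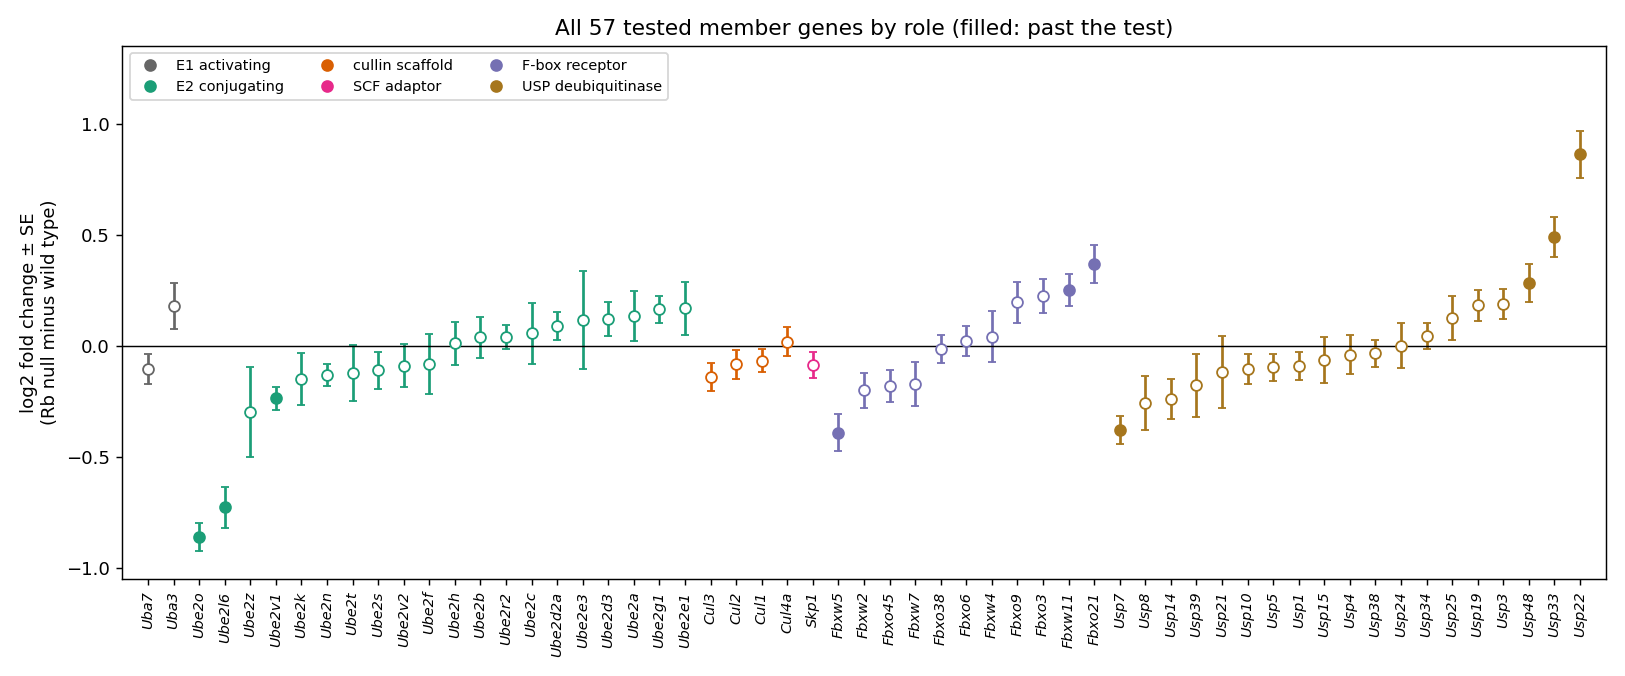
Log2 fold change ± SE (Rb null minus wild type) of the 57 tested member genes, grouped by role and sorted within it. Filled points passed the test, and they sit at the lower end of the E2 group, at both ends of the F-box group and mainly at the upper end of the USP group.

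Ube2o had the largest fall of any member. Its brightest probe set read 888, 828 and 940.4 in the 3 Rb null livers and 1605, 1659.9 and 1684 in the 3 wild type livers. Every Rb null liver was therefore well below every wild type liver, and the difference was many times the spread within either genotype. The means were 886 ± 56 and 1649.5 ± 40.6 (SD, n = 3), a log2 fold change of -0.86 ± 0.06 (limma adjusted p = 1.8e-04), or 55% of the wild type level on the scale of signal plus offset. A second probe set read 774, 861 and 784 against 1644, 1576 and 1608, a change of -0.96 ± 0.06 (limma adjusted p = 1.1e-04). Its suffix f marks probes that several transcripts may share. Both probe sets thus gave the same picture, while the third was at 10.1 on average and could not be tested. Among all 5273 tested genes the fall of Ube2o ranked 9 from the lowest.

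Red cell genes were lower in the same livers. Of 10 tested markers of maturing erythroblasts, such as Alas2, Ank1, Klf1 and Slc4a1, 9 fell and the erythropoietin receptor gene Epor did not pass. Their summed signal was 33369 to 35437 in Rb null and 46906 to 49961 in wild type livers, so the groups did not overlap, and their median log2 fold change was -0.49. None of the 10 was below the signal filter, and over all tested genes 9.50% fell. Whole livers were measured, so fewer red cell precursors and less RNA per cell cannot be told apart. The part of these markers in the Ube2o change was not tested.

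Markers of several other cell types were higher. Of the tested markers 4 of 5 rose for megakaryocytes, 5 of 8 for granulocytes, 6 of 10 for mesenchyme, 3 of 9 for endothelium and 2 of 9 for macrophages, with none falling. Hepatoblast markers split, with 2 rising, 2 falling and 9 not passing. Over all tested genes 13.1% rose and 9.50% fell. The marker shares that rose were nearest to this for hepatoblasts (15.4%) and macrophages (22.2%). The summed mesenchyme signal was 15616 to 17349 in Rb null and 12253 to 12584 in wild type livers, the megakaryocyte sum 6074 to 6329 against 4144 to 4399 and the granulocyte sum 11794 to 11903 against 9079 to 9190.3. The endothelial sum was 5303 to 5733 against 4414 to 4623, the macrophage sum 4947 to 5538 against 4498 to 5037 and the hepatoblast sum 40811 to 43209 against 43227 to 46798. The macrophage ranges overlapped, the hepatoblast ranges nearly touched and the others were apart. No marker on the array read 0, though 1 to 3 markers of each type other than hepatoblasts and red cells were below the signal filter, Pf4, Pecam1 and Vim among them. The part of these markers in the changes of the members was not tested.

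Ube2l6, the conjugating enzyme for the ubiquitin-like modifier ISG15, had the next largest fall. It read 302, 355 and 381 in Rb null and 601, 623 and 587 in wild type livers, and the groups were clearly apart. The change was -0.73 ± 0.09 (limma adjusted p = 0.0017), which left 60.4% of the wild type level on the scale of signal plus offset. When the change of Ube2o was subtracted on each array, Ube2l6 differed from it by 0.13 (95% interval -0.10 to 0.37, limma adjusted p = 0.22), so the fall of Ube2l6 was not shown to be smaller. All 55 other tested members had a change above that of Ube2o in this fit, where 98.7% of all tested probe sets differed from Ube2o. The fall of Ube2o was known when the members were chosen and was among the largest of all tested genes. Nearly any gene would therefore differ from it, and the count says nothing particular of the members. Unlike the genotype test, this fit used no intensity trend.

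The other genes of the ISG15 pathway were dim or did not pass. Uba7, the activating enzyme for ISG15, read 1269.7, 1090.0 and 1220.3 against 1298, 1259.5 and 1294 (-0.10 ± 0.07, adjusted p = 0.32), and it passed as lower only after median scaling of the alternatives run (-0.24, adjusted p = 0.045). Usp18, which removes ISG15 from proteins, read 70.6, 83.1 and 88.8 against 103, 124 and 152, lower in every Rb null embryo but below the signal filter. Isg15 itself was also below it, at 98.1, 57.1 and 65.1 against 156, 147 and 70.5, with overlapping groups.

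Ube2v1 fell by a smaller amount. It is an E2 variant without catalytic activity of its own that pairs with Ube2n to build chains linked through lysine 63 of ubiquitin. Its signal was 2176, 2106 and 2102 in Rb null and 2511, 2454 and 2591 in wild type livers (-0.24 ± 0.05, adjusted p = 0.014). Its partner Ube2n read 2574, 2585 and 2547 against 2918, 2714 and 2824; the groups did not overlap, but its change of -0.13 ± 0.05 did not pass (adjusted p = 0.10) except after median scaling (-0.27, adjusted p = 0.014). The related Ube2v2 had -0.09 ± 0.10 (adjusted p = 0.56). The Ube2v1 call was lost without wild type embryo 3 (-0.22, adjusted p = 0.054) and after quantile normalization (-0.16, adjusted p = 0.057).

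The remaining 17 tested conjugating enzymes did not pass, with log2 fold changes from -0.30 to 0.17, of which 7 were below 0 and 10 above. Ube2r2, a close relative of Cdc34 that works with SCF ligases, was among those with the narrowest interval, at 0.04 ± 0.05 (95% interval -0.09 to 0.16). The E2 enzymes of the anaphase-promoting complex, which destroys mitotic cyclins, read 383, 505 and 346 against 431, 399 and 343 for Ube2c (0.06 ± 0.14) and 710.4, 675 and 720.3 against 714, 858 and 722 for Ube2s (-0.11 ± 0.08). For both, the embryos of the genotypes overlapped, and intervals of -0.26 to 0.37 and -0.30 to 0.08 leave room for changes of moderate size. Ube2t, the E2 of the Fanconi anaemia repair pathway, had -0.12 ± 0.13 (adjusted p = 0.54). Ube2h, which acts with the CTLH ligase in erythroid cells, read 0.01 ± 0.10 on its brightest and -0.19 ± 0.13 on its other probe set, neither of which passed. Of the CTLH subunits on the array, Maea (0.13 ± 0.07), Rmnd5a (-0.05 ± 0.07), Ranbp9 (-0.01 ± 0.11) and Ranbp10 (0.14 ± 0.12) did not pass either.

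Ube2g1 (0.16 ± 0.06, adjusted p = 0.10) was higher in all 3 Rb null embryos than in any wild type embryo without passing the test. Ube2z, an E2 that can be charged by Uba6, varied widely in wild type livers, at 1105, 712 and 1258, and read 815, 654 and 968 in Rb null livers (-0.30 ± 0.20). Here 1 wild type embryo lay inside the Rb null range. Ube2w stayed below the signal filter.

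No tested activating enzyme, cullin or SCF adaptor gene passed, and no activating enzyme for ubiquitin itself was among those tested. Uba3, the catalytic subunit of the activating enzyme for the modifier NEDD8, read 498, 649 and 529 against 515, 477 and 465 (0.18 ± 0.10, adjusted p = 0.26), and the NEDD8-conjugating enzyme Ube2f had -0.08 ± 0.14. NEDD8 switches cullin ligases on. The cullin genes Cul1 (-0.07 ± 0.05), Cul2 (-0.08 ± 0.06), Cul3 (-0.14 ± 0.06) and Cul4a (0.02 ± 0.06) did not pass, and their 95% intervals ran from -0.29 at the lowest to 0.17 at the highest. Cul3, the scaffold for BTB-domain receptors, came closest: its Rb null values of 1227, 1382 and 1229 all lay below the wild type values of 1411, 1407 and 1424 (adjusted p = 0.15). Skp1 read 1945, 1921 and 1962 against 2189.8, 1940.5 and 2070.5 (-0.09 ± 0.06, adjusted p = 0.34). The core of the SCF ligase, Skp1 and Cul1, was therefore measured with overlapping groups and changes whose intervals reached no lower than -0.22. After scaling to equal medians Uba7 (-0.24, limma adjusted p = 0.045), Cul3 (-0.27) and Skp1 (-0.22) passed, and Cul4a changed sign (-0.12).

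Among the 11 tested F-box genes 2 rose and 1 fell, where 13.1% of all tested genes rose and 9.50% fell. Fbxo21 read 636, 541 and 585 in Rb null and 479, 428 and 424 in wild type livers (0.37 ± 0.09, adjusted p = 0.020), with no overlap. Leaving out Rb null embryo 1, wild type embryo 2 or wild type embryo 3 ended the call, with limma adjusted p values of 0.073, 0.053 and 0.067, and so did median scaling (0.24, adjusted p = 0.070). Fbxw11 encodes a beta-TrCP protein, a receptor that brings phosphorylated targets such as beta-catenin to the SCF ligase. Its 2 probe sets both rose, but by different amounts. The brighter read 972, 892 and 974 against 817, 728 and 815 (0.25 ± 0.07, adjusted p = 0.041), which no longer passed once any embryo was dropped (changes from 0.20 to 0.29, adjusted p from 0.055 to 0.12). It did not pass either with no filter, without the intensity trend or after quantile, cyclic loess or median scaling, where it was lowest after median scaling (0.12, limma adjusted p = 0.31). The dimmer read 607, 640.2 and 602 against 399, 366 and 374 (0.63 ± 0.07, adjusted p = 0.0011) and passed with each embryo left out (adjusted p at most 0.0079). Btrc, the other beta-TrCP gene, read 527, 444 and 428 against 560.4, 578 and 556 and was lower in all 3 Rb null embryos (-0.26 ± 0.09, adjusted p = 0.075), without passing.

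The F-box gene that fell was Fbxw5, known from both SCF and Cul4 ligases. Its brightest probe set read 683, 688 and 722 against 834, 1029 and 939.6 (-0.39 ± 0.08, adjusted p = 0.014), whereas another read 292, 323 and 324 against 303, 294 and 328 (0.02 ± 0.09). The brighter one carries the suffix s, given to probe sets whose probes can bind several transcripts, and without such probe sets no fall was left. Fbxw7, the receptor for cyclin E and Myc, read 205, 201 and 180.0 in Rb null and 234, 225 and 221 in wild type livers. Its groups did not overlap, but the change of -0.17 ± 0.10 did not pass (adjusted p = 0.25). Fbxw2 (-0.20 ± 0.08, adjusted p = 0.10) and Fbxo45 (-0.18 ± 0.07, adjusted p = 0.11) were also lower in every Rb null embryo without passing, while Fbxo9 was higher in every one (0.19 ± 0.09, adjusted p = 0.16). Fbxw2 passed after median scaling (-0.33) and quantile normalization (-0.27). Fbxo3 gave opposite signs on its probe sets, 0.22 ± 0.08 and -0.18 ± 0.08, each with separated groups and neither past the test. Another 5 F-box genes, among them Fbxl5, the receptor that senses iron, were below the signal filter.

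The bases before the start of 2 of these genes are shown because Fbxo21, which rose, was the only called member whose stretch held a GATA match, and Ube2l6, which fell next most after Ube2o, held no match to any motif searched. Apart from Fbxo21, no called member with a stretch held a match. The 2 stretches shown are the 250 bases before the annotated start, 5′ to 3′ on the strand of the gene, from RefSeq on GRCm38.p6. They lie at chr5:117976520-117976769 for Fbxo21 and chr2:84798578-84798827 for Ube2l6, both on the plus strand. Capitals mark the letters AGATAA, the GATA motif, read here on the opposite strand.
Fbxo21: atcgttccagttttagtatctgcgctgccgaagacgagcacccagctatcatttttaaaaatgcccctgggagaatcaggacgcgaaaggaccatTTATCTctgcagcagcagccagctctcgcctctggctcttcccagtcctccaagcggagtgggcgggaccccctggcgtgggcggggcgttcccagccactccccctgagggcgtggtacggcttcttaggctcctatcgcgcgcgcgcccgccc
Ube2l6: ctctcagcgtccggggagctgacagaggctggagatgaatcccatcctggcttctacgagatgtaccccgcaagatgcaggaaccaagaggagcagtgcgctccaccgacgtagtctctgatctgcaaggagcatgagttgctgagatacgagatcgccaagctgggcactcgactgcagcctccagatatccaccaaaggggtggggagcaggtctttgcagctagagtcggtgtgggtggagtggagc

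The search covered AGATAA for GATA factors, TTTCCCGC or TTTGGCGC for E2F and CCACACCC for KLF1, on both strands and no motif holds the letters of another. A stretch was found for 53 of the 73 members, matched by gene identifier, 4 of them genes that fell and 3 genes that rose. An AGATAA match occurred for 3 of the 53 members and for 11.4% of all genes with a stretch. E2F letters occurred for 1 member, a gene that did not pass, and for 1.51% of all genes. The KLF1 letters occurred for 3 members, all of them below the signal filter, and for 3.68% of all genes. Neither E2F nor KLF1 letters occurred before any of the 7 called members with a stretch. No stretch was found for Ube2o, Usp22 or Usp33, so these called members were not searched. These counts describe the letters in these stretches and say nothing of whether a factor binds.

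Of 19 tested deubiquitinase genes of the USP family 3 rose and 1 fell, where 13.1% of all tested genes rose and 9.50% fell. Usp22, the deubiquitinase of the SAGA coactivator complex that acts on histones, had the largest rise of any member. It read 287, 315 and 261 in Rb null and 143, 128 and 136 in wild type livers. The increase was 0.86 ± 0.11 (limma adjusted p = 0.0015), or 1.82-fold on the scale of signal plus offset. All 3 wild type values lay below the signal filter of 150.1, so the gene was tested only because it was brighter in Rb null livers and the size of its rise is uncertain. Usp33, known as a deubiquitinase that binds the von Hippel-Lindau protein, read 437, 457 and 399.7 against 292, 312 and 275 (0.49 ± 0.09, adjusted p = 0.0076). The calls of Usp22 and Usp33 held under all 17 alternatives in which they could be tested, with changes from 0.61 to 1.03 for Usp22 and from 0.37 to 0.54 for Usp33. For Usp22 the held call adds no support, because of the way it came to be tested.

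Usp48 rose by less, from 711, 789.8 and 859 to 1026, 973 and 899 (0.28 ± 0.08, adjusted p = 0.047). Dropping Rb null embryo 1 or 2, or wild type embryo 1 or 2, ended this call, with limma adjusted p values of 0.14, 0.12, 0.13 and 0.088, as did each of the 3 other scalings (adjusted p from 0.073 to 0.25). Counting every alternative run, the Usp48 call was lost under 10 of 18. Usp3, which acts on histone H2A, and Usp19, a deubiquitinase of the endoplasmic reticulum, were higher in every Rb null embryo on every tested probe set. Their brightest probe sets did not pass (0.19 ± 0.07 and 0.18 ± 0.07, adjusted p = 0.079 and 0.10). A dimmer Usp3 probe set rose from 346, 321 and 334 to 437, 487 and 469 (0.42 ± 0.08, adjusted p = 0.0091) and a dimmer Usp19 probe set from 197, 205 and 212 to 334, 361 and 264 (0.53 ± 0.12, adjusted p = 0.017). The Usp19 call ended when Rb null embryo 1, Rb null embryo 2 or wild type embryo 1 was dropped, with limma adjusted p values of 0.065, 0.064 and 0.051.

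Usp7, which deubiquitinates both p53 and its ligase Mdm2, was the deubiquitinase gene that fell. Its brightest probe set read 1643, 1857 and 1843 against 2347, 2281 and 2360.1 (-0.38 ± 0.06, adjusted p = 0.0047), so each Rb null embryo was below each wild type embryo. A dimmer probe set showed no such difference, with 294, 262 and 309 against 289, 294 and 277 (0.00 ± 0.09, 95% interval -0.21 to 0.22), and the mean of both did not pass (-0.19, adjusted p = 0.061). Mdm2 did not pass (0.33 ± 0.18, adjusted p = 0.22). Usp14, which sits on the proteasome, read 1098, 1365 and 1203 against 1556, 1345 and 1446 (-0.24 ± 0.09, adjusted p = 0.092), with 1 Rb null embryo inside the wild type range. Usp1, which acts on PCNA and FANCD2 in DNA repair, had -0.09 ± 0.06 (adjusted p = 0.34) and passed after median scaling (-0.22, adjusted p = 0.042). Usp4, Usp5, Usp10, Usp24, Usp34 and Usp38 had brightest probe sets with changes between -0.10 and 0.04 and overlapping groups. A dimmer Usp34 probe set was higher in every Rb null embryo, at 385, 360.0 and 398 against 326, 307 and 302, without passing (0.25 ± 0.08, adjusted p = 0.065).

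**Figure D3:**
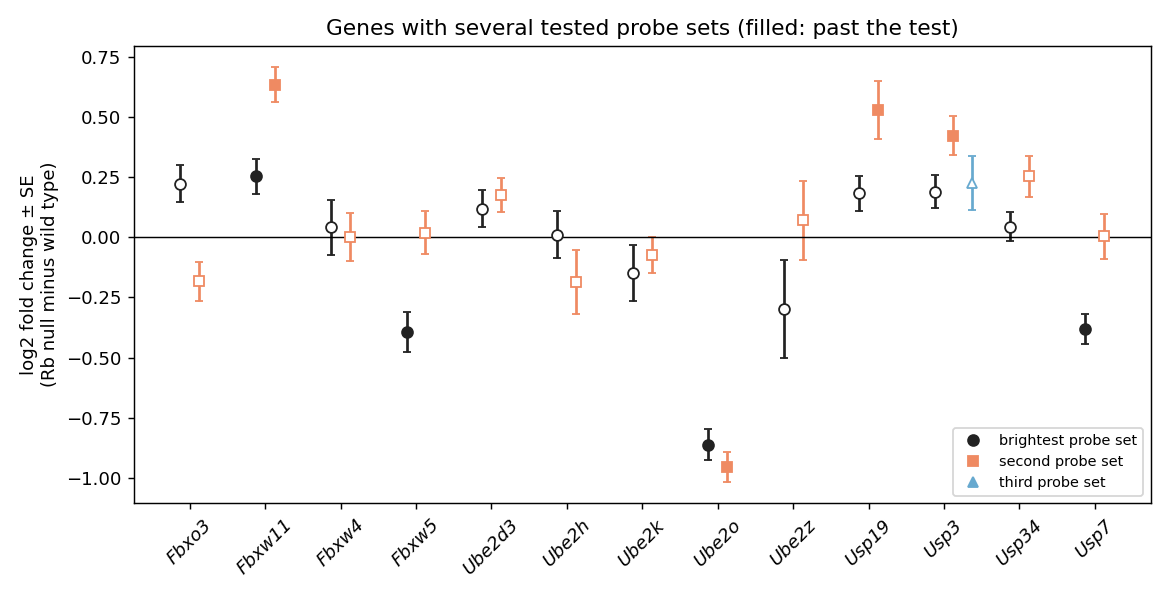
Log2 fold change ± SE (Rb null minus wild type) of every tested probe set of the 13 member genes with more than 1, from the brightest to the dimmest, filled where the test was passed. The probe sets of Ube2o lie together, those of Fbxw11 and Usp3 share a direction, and those of Usp7 and Fbxw5 lie apart, with the brighter one low and the other near 0.

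Members were also listed by function, in lists too short to be set apart from the 13.1% rising and 9.50% falling over all tested genes. Of 12 tested members linked to the cell cycle, 1 rose (Fbxw11) and 1 fell (Usp7), 8.33% each, with a median change of -0.09. Ube2o was the 1 of 3 tested members tied to red cell maturation that fell, beside Ube2h and Fbxo9. Ube2l6 was the 1 of 4 for ubiquitin-like modifiers, and Ube2v1 the 1 of 3 for lysine 63 chains. Neither of the 2 tested E1 genes, Uba3 and Uba7, passed, and neither is an activating enzyme for ubiquitin itself.

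Several probe sets were tested for 13 of the members. Their changes had the same sign for 8 genes and different signs for 5. Every tested probe set passed for 2 genes, Ube2o and Fbxw11, some but not all passed for 4, Fbxw5, Usp3, Usp7 and Usp19, and none passed for 7. No gene had probe sets that passed in opposite directions. Probe sets of a gene can bind different parts of its transcript or different transcripts, and their positions were not given in the sources used here.

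The 16 member genes below the signal filter cannot be read as changed or unchanged. They were Cul7, Fbxl5, Fbxl12, Fbxl15, Fbxo8, Fbxo15, Uba1y, Ube2w, Ube3a, Usp2, Usp12, Usp17la, Usp17lc, Usp18, Usp29 and Usp42, with mean signals from 3.22 for Usp12 to 148 for Ube3a. Uba1y is the Y-linked relative of the E1 gene Uba1, and the sex of the embryos is not given in the labels. Ube3a, the only HECT-type ligase among the members, read 124, 156 and 126 in Rb null and 179.7, 138 and 166 in wild type livers, with overlapping groups.

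Bright members leaned downward, and so did bright genes over the whole array. Of the 24 members with a mean signal above 1000, none rose and 3 fell, against 176 rising and 373 falling (21.3%) of the 1752 tested genes in that range. At an unadjusted p under 0.05, 3 of these bright members (Ube2g1, Fbxo3 and Usp3) were higher in the limma fit. Their median change was -0.08, beside -0.07 for all tested genes that bright. Of the 12 tested members below 500, 2 rose and 1 fell, against 13.7% rising and 1.58% falling of all tested genes that dim, with a median of 0.05 beside 0.08. The part of signal in the changes was not tested.

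**Figure D4:**
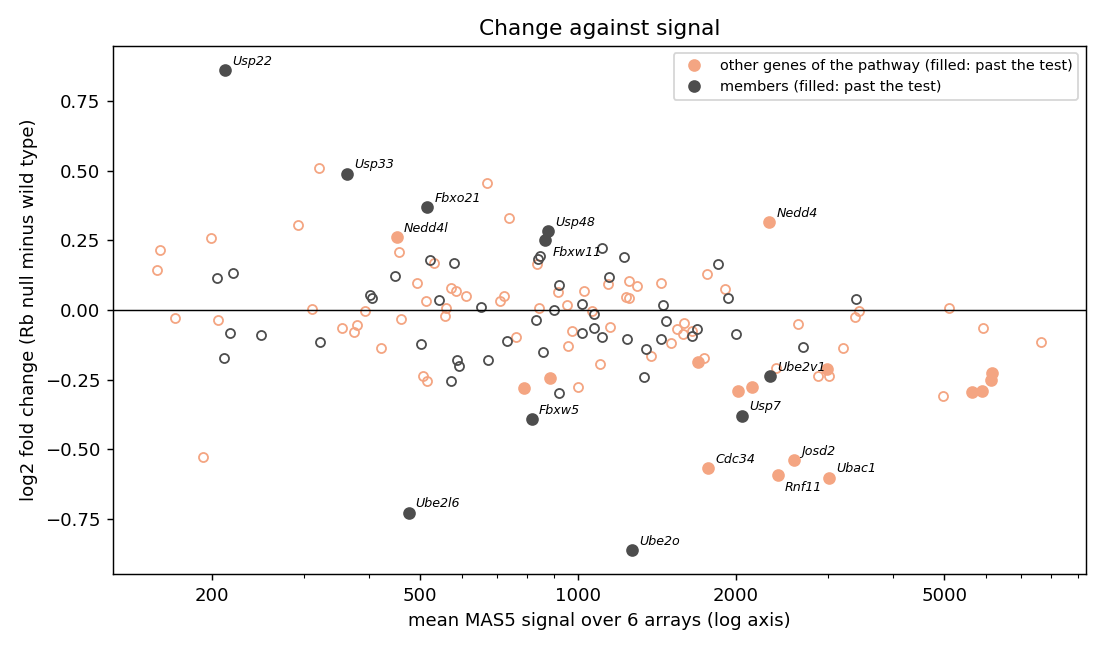
Log2 fold change (Rb null minus wild type) against mean signal over the 6 arrays (log axis) for the 57 tested members (dark) and the 84 other tested genes of the ubiquitin pathway (light), filled where the test was passed. The members that rose all lie below a mean signal of 1000, and most of the other pathway genes that fell lie above it.

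Beyond the members, 142 symbols of other ubiquitin genes were listed, covering ubiquitin-like modifiers, further ligases and their subunits, other deubiquitinases and the COP9 signalosome. Of these 93 were on the array and 84 were tested. In Rb null livers 14 fell (16.7%, against 9.50% of all tested genes) and 2 rose (2.38%, against 13.1%), with a median change of -0.04. Of the 43 with a mean signal above 1000, 12 fell (27.9%, against 21.3% of all tested genes that bright). The count that fell was between 6 and 12 with 1 embryo left out (7 without Rb null embryo 2, 9 without wild type embryo 2, 6 without wild type embryo 3) and 8 after quantile or cyclic loess normalization. Over all tested probe sets 319 to 528 fell with 1 embryo left out, against 617 with all embryos. After quantile and cyclic loess normalization 574 and 546 fell.

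The largest fall among these was that of Ubac1, a ubiquitin-associated subunit of the KPC ligase, from 3382, 3582 and 3954 to 2277, 2529 and 2330.3 (-0.60 ± 0.07, adjusted p = 0.0012). Rnf123, the ligase it pairs with, was dim and did not pass (-0.53 ± 0.26, adjusted p = 0.18). Rnf11, a RING-domain protein, read 1621, 2053 and 2074 against 2925, 2829.7 and 2933 (-0.59 ± 0.09, adjusted p = 0.0037). Cdc34, the E2 that works with SCF ligases but does not carry a Ube2 symbol, fell from 2096, 2104 and 2179 to 1404, 1371 and 1482 (-0.57 ± 0.05, adjusted p = 4.7e-04). Its relative Ube2r2 was at 0.04 ± 0.05 in the same livers, and the difference between them was not tested. Josd2, a deubiquitinase of the Josephin family, fell by 0.54 ± 0.06 on the log2 scale (adjusted p = 9.4e-04). For Ubac1, Rnf11, Cdc34 and Josd2 every Rb null embryo lay below every wild type embryo.

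The other 10 that fell did so by 0.19 to 0.29, among them Anapc5 of the anaphase-promoting complex (-0.29 ± 0.07), Ddb1, the Cul4 adaptor (-0.23 ± 0.06), Elob, an adaptor of Cul2 ligases (-0.25 ± 0.07) and the F-box cyclin gene Ccnf (-0.19 ± 0.06), all 4 picked once their values were known. The genes that rose were the HECT ligase genes Nedd4, from 2024, 2012 and 2147 to 2507, 2554 and 2669 (0.32 ± 0.05, adjusted p = 0.0057), and Nedd4l (0.26 ± 0.08, adjusted p = 0.0497). Dropping any embryo but wild type embryo 2 ended the Nedd4l call (limma adjusted p from 0.11 to 0.14). Counting the processing alternatives too, this call was lost under 11 of 17 (limma adjusted p up to 0.24). Nedd4 was read from a probe set with the suffix s, and Nedd4l and Rnf11 from probe sets with the suffix f. Probes with either suffix may be shared by several transcripts. Nedd4 did not pass as the average over its probe sets (0.09, adjusted p = 0.42) or after median scaling (0.18, adjusted p = 0.085).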

How the data were processed

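Total RNA of 6 fetal livers, 3 Rb null and 3 wild type, was extracted with Trizol and 6 ug per liver were labelled for 1 Affymetrix array each. The deposited values are intensity, linear signals per probe set, which the authors made with MAS5, per the submitters' processing notes; its version and scaling target were not given in the sources used here. From the deposited table, 66 array controls were set aside, 0.1 of the 2% trimmed mean was added ahead of the log2 step, and probe sets above 0.3 of it were kept (6793 of 12422). The genotype test was limma 3.58.1 (R 4.3.3) with an intensity trend, two-sided, adjusted by Benjamini-Hochberg over all tested probe sets. The procedure was tested on simulated data with known answers. That simulation held only larger changes in brighter probe sets, so it does not cover the smaller or dimmer calls made here. Replicates are embryos, and their number limits the precision. Same-numbered embryos of the genotypes were not treated as pairs.

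Symbols are those of the platform annotation. The members, gene lists and marker lists were chosen with earlier results of these data known, so no test over a list is given. Genes were named by a rule: in each role class up to 4 higher and 4 lower genes past the threshold, or else the 2 with the smallest p, members of short lists by function, genes whose probe sets passed in opposite directions, and up to 4 others of the pathway in each direction. Genes named outside it, namely the CTLH subunits, Btrc, Mdm2, Isg15, Rnf123, Usp3, Usp14, Usp19 and the members given only in passing, were chosen after their values were seen. Alternatives changed the offset, filter, scaling, variance model, probe set choice, symbols, minimum fold and embryos. The fit relative to Ube2o was added after the data were seen. Promoter sequences are from RefSeq.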

Additional observations from a re-analysis of the deposited data

How the results depend on the processing

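Ube2o kept its direction and call under all 18 alternatives run (-0.99 to -0.56, limma adjusted p at most 0.0020). Ube2l6, Usp22 and Usp33 did so under the 17 that tested them, and the stricter filter left those 3 out. Usp22 was tested only because it was brighter in Rb null livers, so its held call adds no support. Counts of calls moved more, and the cause was not tested. Member genes that rose numbered 5, and 3 with no filter, the stricter filter, quantile normalization or no intensity trend, 2 after median scaling, 8 with the mean of the probe sets of a gene and 1 at no less than 1.5-fold. Member genes that fell numbered 5, and 15, 3 and 2 under the last 3 of these. Member probe sets that rose numbered 8, and 3 with the stricter filter, 5 after median scaling and 2 at 1.5-fold; those that fell numbered 6, and 17 and 3 under the last 2. Other pathway genes that rose numbered 2, and 0 after median scaling or at 1.5-fold and 1 with an offset of 0.3 of the trimmed mean, no filter, the stricter filter, quantile or cyclic loess normalization or without shared-probe suffixes. Those that fell numbered 14, and 9 with no filter, 8 after quantile or cyclic loess normalization or without the intensity trend, 27 after median scaling and 2 at 1.5-fold. With 1 embryo left out the ranges were 2 to 4 member genes up, 4 to 6 down, 4 to 7 member probe sets up, 5 to 7 down, and 1 to 2 other genes up, 6 to 12 down. Calls moved over all tested probe sets too, from 867 higher and 617 lower. These became 730 and 421 of 12422 with no filter and 513 and 650 of 3784 with the stricter filter. They were 699 and 574 after quantile normalization and 827 and 440 without the intensity trend. Median scaling gave 479 and 1363, and the 1.5-fold minimum 238 and 44. With 1 embryo left out 517 to 706 were higher and 319 to 528 lower.

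The median change of the members, -0.04, was -0.065 with no filter or the stricter filter, -0.17 after median scaling and -0.05 to -0.03 with 1 embryo left out. Signs turned for Cul4a (-0.12), Ube2r2 (-0.10) and Ube2h (-0.12) after median scaling and for Fbxw5 (0.019) without shared-probe suffixes. Changes smaller than their SE also crossed 0: Ube2c with 1 embryo left out (lowest -0.09) and under the other scalings, Ube2h likewise (lowest -0.05 with 1 embryo left out) and when its probe sets were averaged, and Cul4a with 1 embryo left out (lowest -0.02). Uba7, Ube2n, Usp1, Cul3 and Skp1 passed as lower after median scaling, and Fbxw2 after median scaling and quantile normalization. Deviations of same-numbered embryos had correlations of -0.06 and 0.05 for replicates 1 and 2, and of 0.27 for replicate 3. The cause of the last was not tested. A replicate block gave 813 probe sets higher and 606 lower, against 867 and 617. It ended the calls of Usp48 (limma adjusted p = 0.080) and Nedd4l (limma adjusted p = 0.077). The 3 embryos per genotype limit the precision, and low signals near background limit dim probe sets.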

Other observations

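Some ubiquitin probe sets fell outside the naming rule. Usp9x, an X-linked deubiquitinase gene, read 1646, 1617 and 1501 in Rb null and 1464, 1638 and 1282 in wild type livers (0.12 ± 0.09, limma adjusted p = 0.37) on its brighter probe set, with overlapping groups. A probe set shared by Ube2l3, a conjugating enzyme of the HECT and RBR ligases, and 4 other symbols read 2568, 2437 and 2243 in Rb null and 2372, 2772 and 2456 in wild type livers (-0.07 ± 0.08, limma adjusted p = 0.59). A probe set shared by Ube2j2, a conjugating enzyme of the endoplasmic reticulum, and Gm5801 read 504, 475 and 416 in Rb null and 393, 459.5 and 427 in wild type livers (0.11 ± 0.10, limma adjusted p = 0.45). None of the 3 passed, and the shared probe sets cannot be assigned to 1 gene.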
